A study of Mus musculus with 98 samples.

Results

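The cytosolic ribosomal protein genes were followed through single innate lymphoid cells (ILCs) of the intestine, which are lymphocytes that carry no rearranged antigen receptor. Members were chosen by symbol alone: names that begin with Rpl or Rps followed by a number, with the stalk genes Rplp0, Rplp1 and Rplp2, the small subunit genes Rpsa and Fau, and no pseudogenes or S6 kinases. This gave 85 of the 23420 gene symbols in both tables, 34 of the small and 51 of the large subunit. Of these, 7 are named for a paralog of another member: Rpl3l, Rpl7l1, Rpl10l, Rpl22l1, Rpl39l, Rps27l and Rps4y2. Gnb2l1 (an older symbol of Rack1) and Rpl36al also encode ribosomal proteins but fall outside the name rule, and they are given apart. Rps3a1 was the only copy of Rps3a in the tables.

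R9-ILCs were regenerated from pluripotent stem cells and labelled C57BL/6. They were sorted as CD45.2+ GFP+ Lin- CD127+ single cells from the intestine of Rag2-/- Il2rg-/- recipients, animals that lack their own ILCs, 3 weeks after transplantation. WT-ILCs were sorted as CD45.2+ Lin- CD127+ cells from the intestine of wild-type C57BL/6 mice aged 8 weeks. The titles of the R9 cells came in 2 series, 32 cells without a numeric ending and 35 with the ending 1, and the labels do not say what the ending means. Neither the number of recipients nor that of donors is given in the labels, so each group counted as 1 sample and the differences below have no replicate check. All spreads are over cells.

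The tables held TPM, transcript abundance per length scaled to 1e+06 in each column, and TPM keeps no depth. The median number of genes at 1 TPM or more, used here as the limit of detection, came to 2082.5 for R9 cells with no ending, 2429 for those of ending 1 and 2092.5 for WT cells. A total of 31 WT columns were joined into 22 cells where columns resembled each other (r above 0.8 over genes detected in both), and 8 cells came from more than 1 column. Some joined columns shared as little as 24% of their detected genes, so that they are 1 cell is an assumption. Of the 14 ILC3 markers, 11, 10 and 11 reached detection in 50% or more of the cells of these sets, in the same order, while 4 of the 8 ILC2 markers, Il13, Il5, Il1rl1 and Areg, were detected in no cell. The ILC2 list had 1 gene in 50% or more of the cells without an ending and 1 in WT, and it held medians of 0.002%, under 0.001% and 0.009% of TPM, with maxima of 0.084%, 0.087% and 0.559%. Gapdh is a glycolysis gene needed in all cells. It had a listed value of 0 in 24 of the 32 cells without an ending, in 1 of the 35 of ending 1 and in 9 of the 22 WT cells. A value of 0 therefore need not mean that the mRNA is absent. The origin of these zeros was not tested.

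Ribosomal proteins assemble with ribosomal RNA in the nucleolus into the small subunit, which decodes mRNA, and the large subunit, which joins amino acids. Each ribosome holds most of these proteins in a single copy, and their mRNAs are among the most abundant and most evenly expressed of any cell. Most of these mRNAs start with a C followed by a run of pyrimidines, the 5′ terminal oligopyrimidine or TOP motif, through which the kinase mTORC1 and the RNA-binding protein Larp1 adjust their translation when lymphocytes grow.

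The start sites of members that recur below are shown. Long runs of C and T near the annotated start were more frequent in the group than among all genes. Most members with such a sequence available lack one. The members shown were picked for both kinds, 6 with a run of 8 or more and 4 with a short one. Their proportion is therefore not that of the group. Each stretch has 30 bases, 5′ to 3′ on the gene's strand, and the annotated first base of the transcript is base 16. Capitals mark the longest unbroken run of C and T that covers at least 1 base within 5 bases of that start. The sequences are from RefSeq (GRCm38.p6).
Rps18 (chr17:33955651-33955680, minus strand): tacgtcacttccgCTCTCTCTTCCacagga
Fau (chr19:6057932-6057961, plus strand): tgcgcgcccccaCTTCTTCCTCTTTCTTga
Rpl38 (chr11:114668565-114668594, plus strand): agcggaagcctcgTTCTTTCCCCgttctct
Rps9 (chr7:3704026-3704055, plus strand): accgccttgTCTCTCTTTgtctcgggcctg
Rps27 (chr3:90213634-90213663, minus strand): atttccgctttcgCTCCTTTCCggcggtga
Rps27l (chr9:66946071-66946100, plus strand): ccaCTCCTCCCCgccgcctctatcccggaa
Rpl13 (chr8:123102335-123102364, plus strand): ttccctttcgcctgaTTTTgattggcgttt
Rpl41 (chr10:128549154-128549183, minus strand): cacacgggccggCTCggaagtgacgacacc
Rps28 (chr17:33824548-33824577, minus strand): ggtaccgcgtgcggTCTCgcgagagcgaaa
Rpl26 (chr11:68901551-68901580, plus strand): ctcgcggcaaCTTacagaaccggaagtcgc
The run is 11 bases long in Rps18 and 16 in Fau, and it spans the annotated start in both. In Rps27l the 9-base run lies wholly upstream of the annotated start, whereas in Rps27 the run of equal length spans it. Rpl13 and Rps28 had only 4 such bases, which cover the annotated start. Rpl41 and Rpl26 had 3, which lie wholly upstream of it. The median run was 6 bases over the members and 4 over all genes. A run of 8 or more C or T was found in 25 of the 64 members with a window (39.1%), against 11.1% of 17492 protein-coding genes and 11% of all 27025 genes with a window. A match is a feature of the letters and no measure of translation. It need not begin with a C or at the first base of the transcript, so these percentages do not count the TOP motif. The 25 members with the run had a median detection 32.1 percentage points higher in R9 cells of ending 1 than in R9 cells without an ending, and the 36 tested members without it had 31.3 points.

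Together, the 85 genes held shares of all TPM with overlapping ranges in the 3 sets, highest by mean and median without an ending. The sets also differed in how that share was spread over cells and over single genes. The share in R9 cells without an ending ranged from 0.771% to 24.4% with a median of 6.13% (mean 8.11% ± 6.46, SD over 32 cells). In R9 cells of ending 1 it ranged from 3.17% to 11% with a median of 4.99% (mean 5.01% ± 1.34, SD over 35 cells). WT cells ranged from 0.380% to 13.4% with a median of 4.47% (mean 4.63% ± 3.31, SD over 22 cells). The 3 ranges overlap, and the cells of ending 1 lie closest together. Shares of 10% or more were seen in 10 of 32 cells without an ending, 1 of 35 of ending 1 and 2 of 22 WT cells. Shares under 3% were seen in 9, 0 and 7 cells.

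The number of members detected in a cell separated the R9 series. R9 cells without an ending had 28 to 60 of the 85 genes at 1 TPM or more with a median of 43, R9 cells of ending 1 had 57 to 82 with a median of 70, and WT cells had 16 to 82 with a median of 57.5. The ranges of the R9 series overlap only between 57 and 60 genes, while the WT range spans both. At least 60 members were detected in 1 of 32, 33 of 35 and 9 of 22 cells. The number followed the genes detected in the same cell (Pearson r of 0.72, 0.72 and 0.70 over the cells of each set, Spearman rho of 0.62, 0.79 and 0.73), and both counts come from 1 library. Among cells with 1500 to 3000 detected genes, where the median number of genes was 2090, 2264 and 2050, the median number of members was 43 (31 cells), 69 (27 cells) and 57 (17 cells). At this limit, the gap between the R9 series was thus of much the same size among cells of similar gene number. Over all cells, a limit of 10 TPM gave medians of 43, 63 and 49.5 members, a smaller gap between the R9 series.

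**Figure D1:**
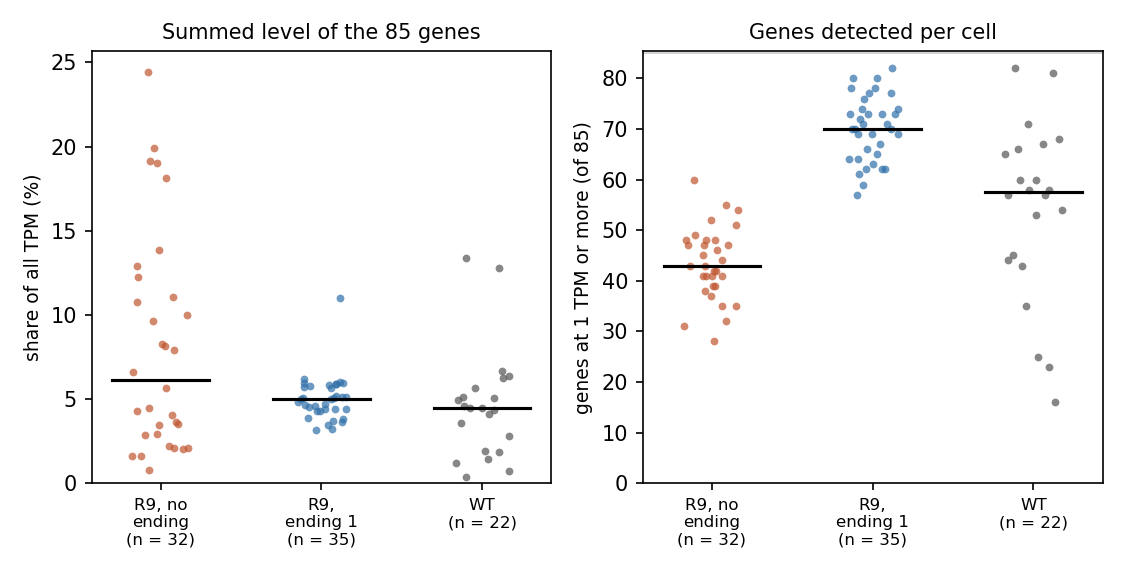
Each point is 1 cell. The left panel plots the percentage of all TPM held by the 85 ribosomal protein genes and the right panel the number of them at 1 TPM or more, in R9 cells without a title ending (n = 32), R9 cells of ending 1 (n = 35) and WT cells (n = 22), with lines at the medians. The shares have medians of 6.13%, 4.99% and 4.47%, and the numbers detected have medians of 43, 70 and 57.5.

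In many R9 cells without an ending, 1 gene held most of the ribosomal protein signal. The leading member, the gene with the highest TPM in a cell, held 6.45% to 96.8% of the summed TPM of the 85 genes in those cells, with a median of 46.9%. It held 4.66% to 11.3% in R9 cells of ending 1, median 7.25%, and 4.51% to 93.7% in WT cells, median 10.2%. A share of 20% or more was held by the leading gene in 22 of 32 cells without an ending (68.8%, exact Clopper-Pearson 95% interval 50 to 83.9%), in 0 of 35 of ending 1 (interval up to 10%) and in 8 of 22 WT cells. These intervals cover counting error of cells only. Across cells, the group's share of all TPM and the leading gene's share had a Pearson r of 0.41 without an ending (Spearman rho 0.49). The values were -0.35 in ending 1 (rho -0.25) and 0.07 in WT (rho -0.10). Both shares come from the same library, so these values were given no test.

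Which gene led differed from cell to cell. The 32 cells without an ending had 23 different leading genes, and Rpl23a led 3 cells. Rpl23a lies at the exit of the peptide tunnel of the large subunit. In R9 cells of ending 1 the leading gene was Rpl13, of the large subunit, in 12 of 35 cells, Rps18, of the small subunit's head, in 7 and Rps27l in 3. The 22 WT cells had 16 leading genes, with Rpl13 in 3. The extremes were a cell without an ending in which Rps18 held 96.8% of the ribosomal protein TPM, another in which Rps15 held 96.1%, and a WT cell in which Rpl41 held 93.7%.

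Single genes outside the group were also high in the same cells. At least 1 gene of any kind held 10% or more of all TPM in 26 of 32 cells without an ending, in 1 of 35 of ending 1 and in 5 of 22 WT cells, and this gene was a ribosomal protein gene in 2 of the cells without an ending. The 6 cells without an ending that lacked such a gene had a median leading share of 21.5%. Epithelial markers also differed between the sets, but in another order, with the highest median in WT. The 12 listed genes held a median of 0.087% of TPM (0 to 43.6%) without an ending, 0.005% (under 0.001 to 1.40%) in ending 1 and 2.05% (0.002 to 20.3%) in WT. Cdh1 was detected in no cell without an ending. In the 25, 32 and 10 cells with less than 1% of TPM in that list, the leading gene held a median of 37%, 7.41% and 8.50% of the ribosomal protein TPM, and 44, 70 and 59 members were detected. The mast cell and basophil list and the macrophage and dendritic cell list also had their highest medians without an ending, 0.135% and 0.044% of TPM, against 0 and 0 in ending 1 and 0 and under 0.001% in WT. The part of these cells' genes and of single high genes of unknown origin in the spread of the members was not tested.

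**Figure D2:**
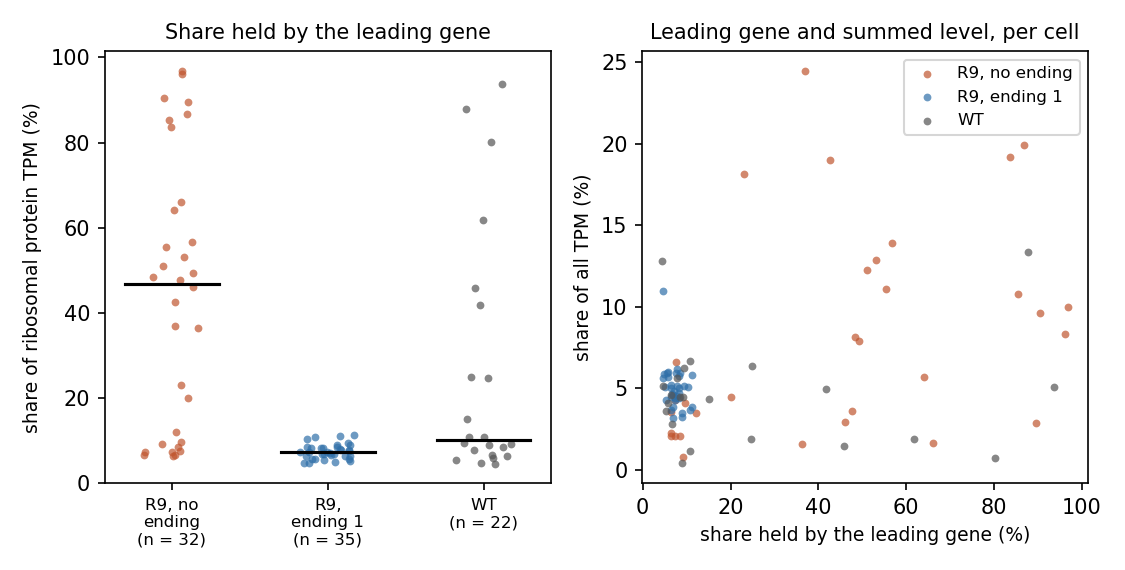
The left panel plots, for each cell, the percentage of the summed TPM of the 85 genes held by the highest of them, with lines at the medians (46.9% in R9 cells without an ending, 7.25% in R9 cells of ending 1 and 10.2% in WT cells). The right panel sets this percentage against the group's share of all TPM; the cells of ending 1 gather at 4.66 to 11.3% on the first axis, and cells with a high leading gene are found at both low and high group shares.

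The balance of the subunits differed in the same way. The small subunit's genes held a median of 48.5% of the ribosomal protein TPM without an ending, 48.0% in ending 1 and 43.7% in WT. The medians were alike and the spreads were not: single cells ranged from 3.8% to 98.3% without an ending, from 38.3% to 55.2% in ending 1 and from 3.42% to 93.7% in WT. Across cells, the shares of all TPM held by the small and by the large subunit's genes had a Pearson r of -0.07 over 32 cells without an ending (Spearman rho -0.03), 0.77 over 35 of ending 1 (rho 0.59) and 0.18 over 22 WT cells (rho 0.37). Both shares come from the same library and the same total, so these values describe the cells and were given no test.

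Detection of single members was compared next. A member was detected in a median of 50% of R9 cells without an ending, 91.4% of R9 cells of ending 1 and 68.2% of WT cells. The genes at 1 TPM or more in every cell numbered 6 without an ending (Rpl4, Rpl10, Rpl13 and Rps3 among them), 22 in ending 1 and 4 in WT (Rpl4, Rpl10, Rps3 and Rps3a1). Rpl4, Rpl10 and Rps3 were thus detected in each of the 89 cells. Rpl10 is added late to the large subunit near the site of peptide bond formation, and Rps3 sits where mRNA enters the small subunit. Members detected in under 50% of cells numbered 39, 8 and 23.

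Between the R9 series, which share 1 table, 50 of 82 tested members (61%) were detected in at least 25 percentage points more of the cells of ending 1, against 12.5% of all 10321 genes tested, and 1 member in as many points fewer (background 3.2%). A gene was tested where its mean reached 1 TPM in at least 1 of the sets compared. The typical gene was detected in 12.5% and 17.1% of the cells, far below the members' medians, so the background holds few genes of the members' detection. The largest gap was that of Rps28, a small subunit protein at the mRNA exit, which was detected in 3 of 32 cells without an ending (9.4%, exact interval 2.0 to 25%), 33 of 35 of ending 1 (94.3%, 80.8 to 99.3%) and 9 of 22 in WT (40.9%, 20.7 to 63.6%). Rpl36, of the large subunit, was detected in 5, 34 and 13 cells, and Rpl21, of the same subunit, in 5, 33 and 10.

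The single member detected in at least 25 points fewer cells of ending 1 was Rpl26, of the large subunit. Its TPM ranged from 0 to 3145 with a median of 193 in cells without an ending (25 of 32 detected), from 0 to 731 with a median of 0.246 in ending 1 (16 of 35) and from 0 to 135 with a median of 3.91 in WT (11 of 22). The ranges overlap, and the median of the cells without an ending lies above the highest WT cell. It was named by the rule for ratios given below as well.

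Over WT, 22 of 83 tested members were detected in at least 25 points more of the R9 cells of ending 1 (background 6.52%) and 0 in as many points fewer (background 1.1%). For R9 cells without an ending, 2 members were detected in more (background 3.19%) and 24 in fewer cells (background 5.9%). With both series taken as 1 group, 3 members were detected in more R9 cells (background 1.66%) and 0 in fewer (background 1.08%). These comparisons share the WT cells. The WT columns that end in 1, 9 of the columns, detected fewer members (median 32), and against them alone 64 members were detected in more cells of ending 1. The share of all genes past this limit was not counted against these columns, so the 64 has no background and is not read as particular to the members.

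**Figure D3:**
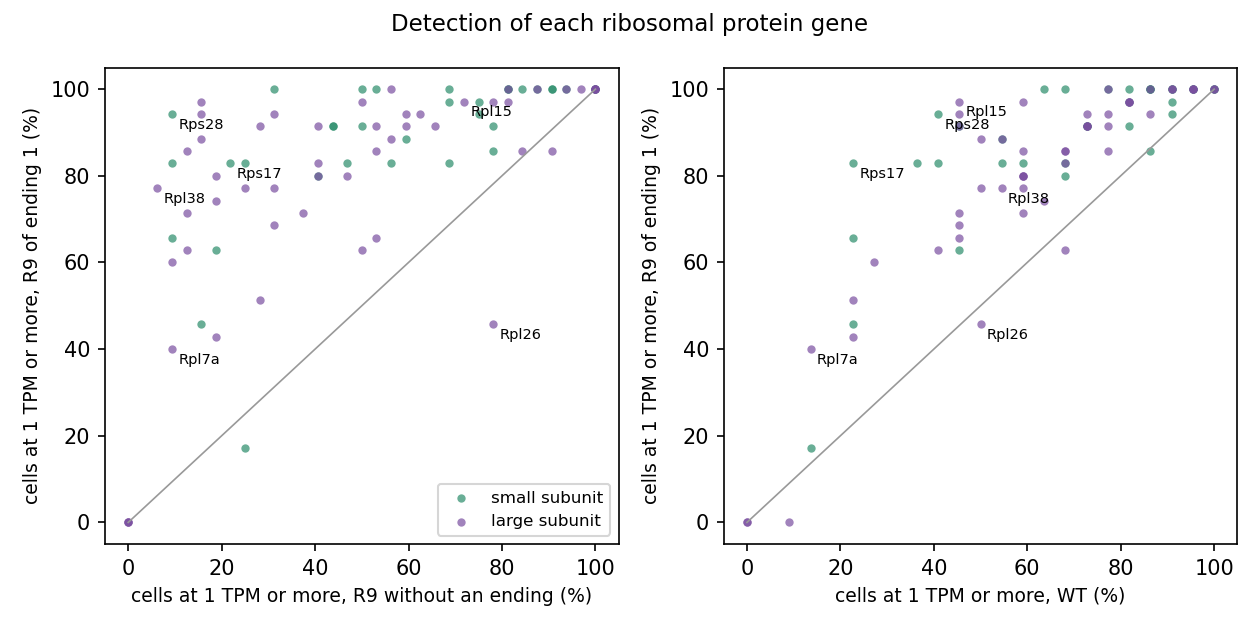
Each point is 1 of the 85 genes, with its percentage of cells at 1 TPM or more in R9 cells of ending 1 on the vertical axis and in R9 cells without an ending (left) or in WT cells (right) on the horizontal axis; colours mark the subunit and the line marks equal percentages. Most genes lie above the line in both panels, Rps28 rises from 9.4% to 94.3% on the left, and Rpl26 lies below it.

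Transcript length and detection went together in the cells without an ending and in WT. Over 84 members their Spearman rho was 0.31 without an ending, 0.07 in ending 1 and 0.26 in WT. Members are short, with a median annotated transcript of 705 bases (271 to 3706, 84 members with a value) against 2384 for all genes. The shorter 42 members were detected in a median of 34.4%, 85.7% and 59.1% of the cells of the 3 sets, the longer 42 in 59.4%, 91.4% and 72.7%. Across 81 members, the detection gap between the R9 series had a Spearman rho of -0.37 with length, and across 9380 genes of all kinds it had -0.35; genes share cells and libraries and are not replicates. The part of length in the gap was not tested.

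Levels of single members were then compared as log2 ratios of mean TPM + 1, where a pseudocount of 1 TPM understates low genes. A log2 ratio of at least 1 in size was called. With mean TPM over all cells, the members' median ratio lay nearer to 0 than that of all genes in each of the 4 comparisons. Without each gene's highest cell this turned round for ending 1 over no ending (1.56 against 1.00) and for no ending over WT (-0.65 against 0). Between the R9 series, the median ratio of ending 1 over no ending was 0.88 for members and 1.61 for all genes. Of 82 members, 39 (47.6%) were higher in ending 1 against a background of 64.9%, and 20 (24.4%) were lower against 16.1%. Ending 1 over WT gave medians of 0.53 and 0.94, with 18 of 83 members higher (background 48.8%) and 3 lower (background 20.4%). No ending over WT gave -0.43 and -0.67, with 22 higher (background 26.6%) and 31 lower (background 44.5%). The whole R9 group over WT gave 0.42 and 0.62, with 23 higher (background 43%) and 7 lower (background 21.3%). Ratios over WT set levels across tables that were normalized separately.

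These ratios turn on how a cell is weighted. When each cell was scaled by 244 other genes that at least 80% of the cells of each set detected, the medians of the members became -1.03 for ending 1 over no ending (22 higher and 42 lower), -0.63 for ending 1 over WT (1 higher and 36 lower) and -0.44 for R9 over WT (20 higher and 28 lower), while those of all genes were 1.01, 0.16 and 0.02. When log2 values were averaged over cells, in place of TPM, ending 1 stood above no ending by a median of 2.61 (68 higher and 1 lower) and above WT by 1.75 (69 higher and 0 lower), against 0.26 and 0.21 for all genes. By these medians the members stood below all genes with the first choice and above them with the second. The share of all genes past the call was not counted for these 2 choices, so the counts of members have no background. For these 3 comparisons, no single direction of level for the group therefore holds across these choices. The members' median of no ending over WT changed sign in none of the alternatives. It was -0.43 with mean TPM and -0.65 without each gene's highest cell, against -0.67 and 0 for all genes.

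The 10 members with the highest mean over the 3 sets included Rps18, Rps20, Rpl41, Rps9, Rps15, Rpl38, Rpl32 and Rpl9. In the set where the mean of each of these was highest, 1 cell held from 35.3% (Rpl41) to 93.1% (Rpl38) of the gene's summed TPM. Rps9, which helps to hold the decoding centre of the small subunit, had its highest cell at 160484 TPM, the next at 1445 and a median of 424 among the cells without an ending. In R9 cells of ending 1 it ranged from 3.92 to 3317 with a median of 727, and in WT from 0 to 2397 with a median of 230. The sets overlap apart from that 1 cell. Rps9 had a ratio of 3.21 for no ending over WT with this cell, and of -0.10 without each set's highest cell. Its ratio of ending 1 over no ending went from -2.59 to 0.83.

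Rpl38, a large subunit protein known for aiding translation of Hox mRNAs in the embryo, showed the same in WT. One WT cell was at 117349 TPM, the next at 2942, and the median was 136. In R9 cells of ending 1 it ranged from 0 to 2686 with a median of 261, and in R9 cells without an ending it was detected in 2 of 32 cells, with 5429 TPM in the higher. Its ratio of ending 1 over WT was -3.96, and -0.47 without each set's highest cell. No ending over WT was -4.97 and -4.92 without those cells; it turned to 1.11 in cells in which no gene held 10% of TPM, of which 6 had no ending.

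Rpl41, whose product is one of the shortest proteins known, reached 47341 TPM in 1 WT cell, with the next at 3261 and a median of 688. Cells of ending 1 ranged from 10.3 to 4327 with a median of 795, and cells without an ending from 0 to 34756 with a median of 338. All sets overlap. The ratio of ending 1 over WT was -1.58 with and 0.07 without each set's highest cell, and 0.83 with log2 values averaged over cells.

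Rps20 and Rpl9 were high in a few cells and listed at 0 in most of the cells without an ending. Rps20, of the small subunit's head, was listed at 0 in 19 of these 32 cells and reached 88050 and 80936 TPM in its highest cells. In ending 1 it ranged from 0 to 1878 with a median of 356, and in WT from 0 to 13082 with a median of 41.5. Rpl9, of the large subunit, was listed at 0 in 24 cells and reached 91718 and 36265 TPM, against 0 to 1983 with a median of 591 in ending 1 and 0 to 1377 with a median of 1.19 in WT. Their means without an ending (6640 and 4101 TPM) therefore say little of a typical cell.

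Across the group, 34 of the 85 genes had 50% or more of their summed TPM over the cells without an ending in 1 cell, 1 gene did so in ending 1 and 14 in WT. Among genes with a mean of 1 TPM or more, this was 41.5%, 1.22% and 16.9% of members. Of all such genes it was 43.1%, 47.9% and 73.4%, so the members without an ending were near the background. The highest cell held a median of 44.5%, 10.5% and 29.9% of a member's sum. Over all genes with a mean of 1 TPM or more these medians were 43.8%, 48.0% and 71.3%. Without each gene's highest cell, the median ratio of ending 1 over no ending was 1.56 for members and 1.00 for all genes, with 55 of 82 members higher (background 50.1%) and 9 lower (background 12.8%). Ending 1 over WT then gave 30 of 83 members higher (background 46.8%) and 0 lower (background 8.91%), no ending over WT gave 11 higher (background 27.3%) and 34 lower (background 22.2%), and the whole R9 group over WT gave 20 higher (background 47.1%) and 2 lower (background 6.94%). By these medians the members were spread more evenly than all genes in ending 1 and in WT, and about as all genes without an ending. Among genes with a mean of 100 TPM or more, nearer the members' level, the medians were 49.1% for members against 24.9% for all genes without an ending, 10.4% against 17% in ending 1 and 27.8% against 38.9% in WT. At that level the members without an ending were thus the more concentrated, and the gap in ending 1 was smaller.

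**Figure D4:**
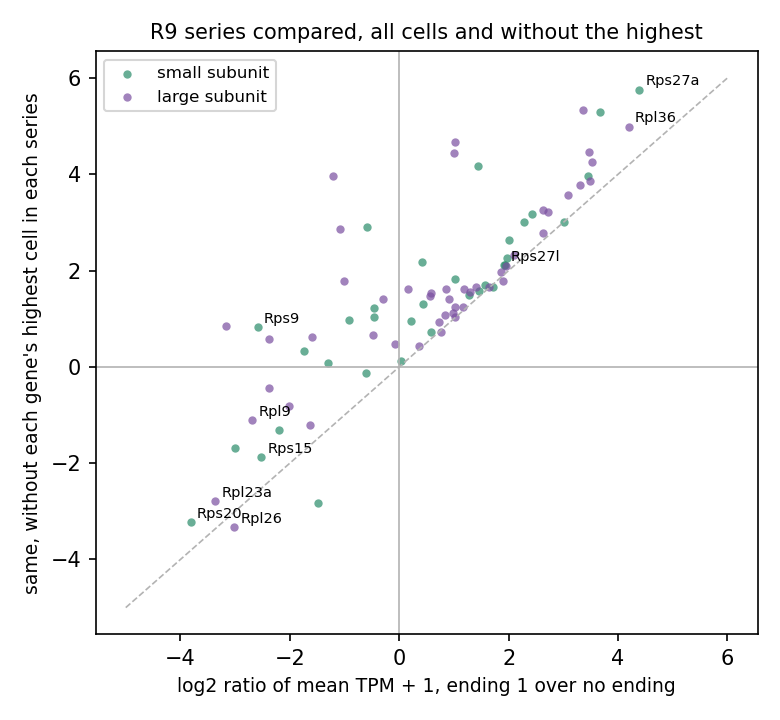
Each point is 1 member, with its log2 ratio of mean TPM + 1 in R9 cells of ending 1 over R9 cells without an ending on the horizontal axis and the same ratio without the gene's highest cell in each series on the vertical axis; the dashed line marks equal values. Points far above the line, such as Rps9 (-2.59 to 0.83), had a large part of their TPM without an ending in 1 cell, while Rps27a, Rpl36, Rps27l and Rpl26 keep their sign.

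The members with the highest ratios of ending 1 over no ending, among those that at least 50% of cells of ending 1 held, were Rps27a (4.38), Rpl36 (4.19), Rps28 (3.67), Rpl28 (3.53) and Rpl11 (3.49). Rps27a, which is made as a fusion with ubiquitin, ranged from 0 to 316 TPM without an ending (3 of 32 cells detected), from 0 to 1628 with a median of 255.5 in ending 1 (29 of 35) and from 0 to 2449 in WT (8 of 22). Its median was 0 without an ending and in WT. Rpl11, which carries the 5S ribosomal RNA into the large subunit with Rpl5 and binds Mdm2 when assembly fails, was detected in 9, 32 and 10 cells, with medians of 0, 534 and 0 TPM. Rpl5 was detected in 15, 28 and 13 cells, with medians of 0, 183 and 2.82 TPM.

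The lowest ratios of ending 1 over no ending by the same rule included those of Rpl23a (-3.36), Rpl26 (-3.01), Rps9 (-2.59) and Rps15 (-2.53). Rpl26 was -3.32 without the highest cells. Rpl23a ranged from 0 to 39479 TPM with a median of 74.5 without an ending, and its median was 295 in ending 1, so its mean and its median point in opposite directions. Rps15, of the small subunit, had a median of 241 TPM without an ending and of 750 in ending 1, which again is opposite to its mean.

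Over WT, the 5 highest ratios in ending 1 among members that at least 50% of these cells held were those of Rpl7 (1.72), Rpl21 (1.68), Rps7 (1.53), Rpl22 (1.46) and Rps21 (1.43). Rpl7 ranged from 0 to 2903 TPM with a median of 906 in ending 1, from 0 to 1887 with a median of 35.8 in WT and from 0 to 1842 with a median of 189 without an ending. Rpl22, whose loss in mice stops the development of a class of T cells, was detected in 18 of 35 cells of ending 1, 5 of 22 in WT and 9 of 32 without an ending. Rpl7a, detected in 14 of 35 and 3 of 22 cells and so outside that limit, had 2.14. The lowest among members that at least 50% of WT cells held were, after Rpl38 and Rpl41, Rps2 (-0.99), Rps29 (-0.80) and Rps20 (-0.77), none of them past the call. Without each set's highest cell these became -0.18, 0.12 and 0.95. The third member called lower was Rpl39l (-3.77), which was detected in 2 WT cells, 1 of them with 98.5% of its sum, and in no cell of ending 1.

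Without an ending, the highest ratios over WT among members that at least 50% of these cells held included those of Rpl26 (3.89), Rpl23a (3.36), Rps15 (3.32) and Rps9 (3.21). Among members that at least 50% of WT cells held, the lowest after Rpl38 were Rpl31 (-4.21), Rps2 (-4.00), Rpl36 (-3.25) and Rpl28 (-2.92). Members outside these limits also had ratios of such size, among them Rps27a (-4.08), Rpl39l (-3.77), Rpl30 (-3.22), Rps28 (-3.01), Rpl7a (4.15) and Rpl12 (4.25, and 0.94 without each set's highest cell). Rps2, of the small subunit's decoding region, ranged from 0 to 371 TPM with a median of 46.2 without an ending, from 0 to 15813 with a median of 114 in WT and from 0.384 to 3236 with a median of 542 in ending 1. Rpl31, at the exit of the peptide tunnel, was detected in 6 of 32, 13 of 22 and 28 of 35 cells of these sets, with medians of 0, 8.94 and 182 TPM.

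The order of the members by mean TPM was closest between ending 1 and WT, with a Spearman rho of 0.88 over the 85 genes, against 0.64 between the R9 series and 0.59 between no ending and WT. By mean log2 value these were 0.87, 0.66 and 0.80. By the percentage of cells detected the order was closest between no ending and WT (0.86), with 0.82 between ending 1 and WT and 0.73 between the R9 series. These are across genes, which are not replicates. In ending 1 the highest means were those of Rpl13 (2441 TPM, 394 to 6579) and Rps18 (1913 TPM, 0 to 4856). Rpl13 had medians of 470 without an ending, 2340 in ending 1 and 604 in WT. Its ratio of ending 1 over no ending was 1.87, and 1.97 without the highest cells. The 10 highest members held 58.6% of the ribosomal protein TPM without an ending, 31.1% in ending 1 and 45.2% in WT.

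**Figure D5:**
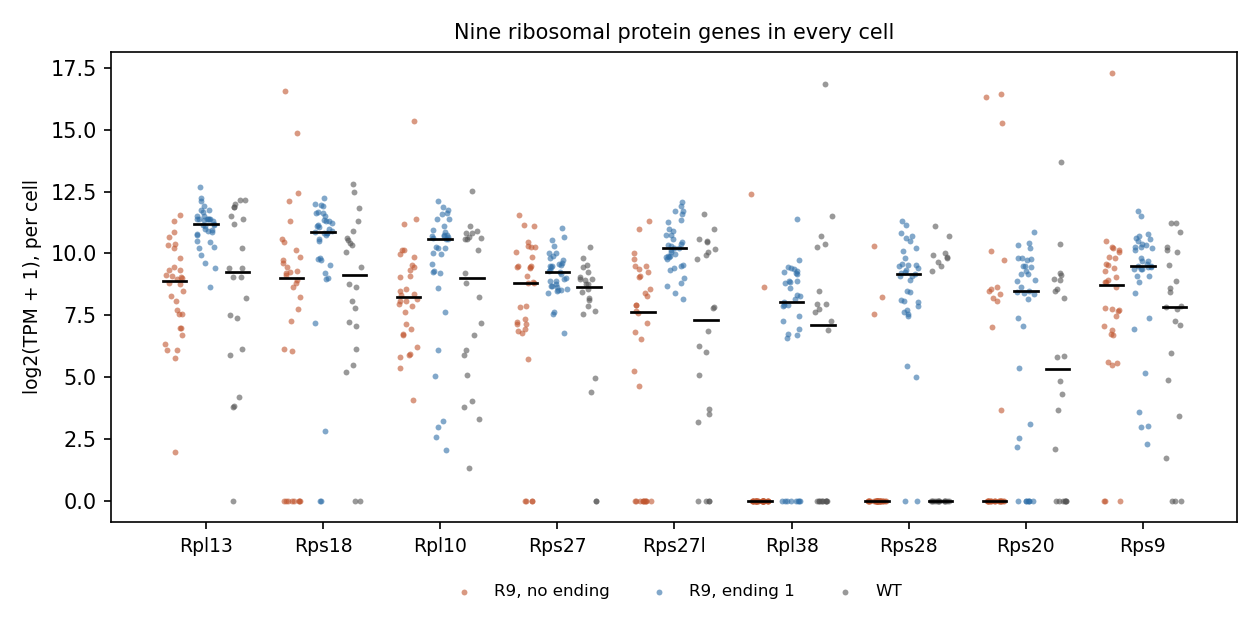
Each point is 1 cell, plotted as log2(TPM + 1) for 9 ribosomal protein genes in R9 cells without an ending (n = 32), R9 cells of ending 1 (n = 35) and WT cells (n = 22), with short lines at the medians. Rpl38, Rps28 and Rps20 have medians of 0 without an ending, single cells stand far above the rest in Rps18, Rps20 and Rps9 without an ending and in Rpl38 in WT, and the points of ending 1 are closest together for Rpl13 and Rps27.

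The stalk of the large subunit, which recruits elongation factors, is formed by Rplp0, Rplp1 and Rplp2. Rplp0 was detected in 31 of 32, 35 of 35 and 21 of 22 cells, with means of 1004, 954 and 627 TPM and a ratio of ending 1 over no ending of -0.07. Rplp1 had means of 1230, 885 and 960 TPM and a ratio of -0.47. Its highest cell without an ending, at 23542 TPM, held 59.8% of its sum there, and the ratio was 0.66 without the highest cells; that of Rplp0 became 0.48. Rplp2, its partner in the dimers of the stalk, had means of 166, 617 and 300 TPM and a ratio of 1.89. Rplp1 and Rplp2 bind the stalk together, and their detection differed less than their means: 20, 33 and 17 cells for Rplp1 and 19, 32 and 16 for Rplp2.

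Rpsa and Fau are small subunit genes with other names. Rpsa, once described as a laminin receptor, had means of 77.1, 256 and 244 TPM and a ratio of ending 1 over no ending of 1.72. Fau is made as a fusion of the ribosomal protein with a ubiquitin-like protein. It was detected in 10 of 32 cells without an ending, in each of the 35 of ending 1 and in 14 of 22 in WT, with medians of 0, 811 and 29 TPM. Its highest cell without an ending, at 8999 TPM, held 86.9% of its sum there, and the ratio of 1.45 became 4.18 without the highest cells. Scaled by common genes it was -1.77.

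Among paralogs, Rps27l stood out by level. Rps27l and Rps27 encode close forms of 1 small subunit protein, and Rps27l is known as a target of p53; their coding sequences were identical at 76.2% of 252 aligned bases. Rps27l ranged from 286 to 4286 TPM with a median of 1183 in ending 1, from 0 to 2544 with a median of 196 without an ending and from 0 to 3078 with a median of 168 in WT. Rps27 ranged from 108 to 2066 with a median of 612, from 0 to 3042 with a median of 451 and from 0 to 1239 with a median of 401 in the same sets. Rps27l was detected in each cell of ending 1 and was the higher of the pair in 29 of 35 of them, in 7 of 32 without an ending and in 11 of 22 in WT. The ratio of ending 1 over no ending was 1.92 for Rps27l and 0.03 for Rps27, and over WT it was 1.19 and 0.74. Rps27l held 68.5%, 36.9% and 61.5% of the pair's TPM in ending 1, no ending and WT.

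The other paralogs were detected in fewer cells than Rps27l in each set. Rpl10l and Rpl3l, known from testis and from heart and skeletal muscle, were listed at 0 in all 89 cells, and Rpl39l, also of the testis, was detected in 2 WT cells. Their partners Rpl10, Rpl3 and Rpl39 were detected in 32, 29 and 17 cells without an ending, 35, 30 and 23 of ending 1 and 22, 15 and 10 in WT. Rpl22l1 was detected in 6, 15 and 5 cells and Rpl7l1 in 16, 22 and 15, and they held 70.0%, 74.6% and 92.1%, and 10.5%, 9.69% and 28.9%, of the TPM of their pairs. Rpl22l1 was the higher of its pair in 6, 10 and 5 cells, and 1 WT cell had it at 2886 TPM. Rps4y2 was detected in 8, 6 and 3 cells, with Rps4x in 19, 31 and 12. Reads that 2 such genes share can be split between them by the counting, which was not given in the sources used here.

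Gnb2l1 and Rpl36al, which lie outside the name rule, had their highest means in ending 1. Gnb2l1, the scaffold protein at the head of the small subunit, had means of 461, 607 and 237 TPM without an ending, in ending 1 and in WT, and was detected in 29, 35 and 19 cells. Its highest cell without an ending, at 7293 TPM, held 49.4% of its sum there. Without the highest cells its mean there was 241 TPM, and its ratio of ending 1 over no ending went from 0.39 to 1.23. Rpl36al, a large subunit gene, had means of 242, 531 and 343 TPM.

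Other genes of translation were counted by lists. Of 29 initiation factors, 15 were higher and 1 lower in ending 1 than without an ending, a median of 1.04. The 41 tested genes of ribosome assembly had 23 higher and 2 lower, a median of 1.40, and the 19 of RNA polymerase I had 15 and 0, a median of 1.98. Of 19 tested genes of mTORC1 and TOP mRNA control, 14 were higher and 1 lower, a median of 1.45. The background of all genes was 64.9% higher and 16.1% lower with a median of 1.61. The 7 elongation factors had 2 higher and 1 lower, a median of 0.79, near that of the ribosomal proteins. Eef1a1, which brings aminoacyl-tRNA to the ribosome, was detected in each of the 89 cells, with means of 1319, 2117 and 1519 TPM without an ending, in ending 1 and in WT. Eef1d, an exchange factor for it, reached 246580 TPM in 1 cell without an ending, with the next highest cell of that set at 234 TPM. Single very high cells were therefore not confined to the ribosomal protein genes.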

How the data were processed

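Per the labels' protocols, RNA of each sorted cell was turned into amplified cDNA (Discover-sc WTA Kit V2) and then into a library (TruePrep DNA Library Prep Kit V2). The submitters' processing notes name StringTie 1.3.4, HISAT2 2.1.0, bcl2fastq and SAMtools 0.1.19 beside the build mm10; the annotation and filters are not given in the sources used here. The authors deposited TPM in 2 tables, 1 per group. Depth is unknown, so precision was given only as spread over cells and, for shares of cells, as exact Clopper-Pearson 95% intervals.

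Each group was 1 sample, so no test was run. WT columns with r above 0.8 were averaged. Log2 ratios used means of TPM + 1 over genes whose mean reached 1 TPM in at least 1 set, and a size of 1 was called. The ratio calculation was tested on simulated data. Named members were the 10 with the highest means, the 5 highest and lowest ratios of 3 comparisons among members detected in at least 50% of cells of the higher set, the paralogs with their partners, Rplp0, Rplp1, Rplp2, Rpsa and Fau; some of these members are not reported here, and others named were picked after their values were seen. Members and lists were chosen with earlier results of these data known. No doublet caller was run. Alternatives varied the WT columns and cells used, the detection limit, the filter, the pseudocount, the kind of mean and the scaling. Coordinates and promoter windows are from RefSeq (GRCm38.p6). Scripts ran on Python 3.11.15 with matplotlib 3.10.9, scipy 1.17.1, pandas 2.3.3 and numpy 2.4.6.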

Additional observations from a re-analysis of the deposited data

How the results depend on the processing

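No paired analysis was possible because the title numbers name cells and the results come from no test. The group's share of TPM (31 of 31 values) and the leading gene's share (23 of 23) stayed within 1 SD over cells, a wide margin for the cells without an ending. Of the ratios of named members, 371 moved by less than the spread over cells, 17 moved by more, and 19 with a size of 1 or more changed sign. That spread is the SD of the gene's log2 value over the cells of the first set. It is wide as well, with a median over the 85 members of 3.32 without an ending and 3.10 in ending 1. A ratio under 1 in size could change sign and still count among the 371, so this number does not show that the ratios are stable. With all 31 WT columns apart, chosen like the next values on detection after seeing the data, members detected in 25 points more of R9 cells than of WT cells numbered 5, and those lower in ending 1 than in WT numbered 5. With WT columns of ending 1 only, WT cells had 32 members detected, those detected in more R9 cells numbered 30 for both series, 11 for no ending and 64 for ending 1, and Rpl41 was 0.46 in ending 1 over WT. Without cells of over 4000 genes, 28 members were higher in ending 1 than in WT. In cells with 1500 to 3000 genes 8 were lower. Without cells in which 1 gene held 10% or more of TPM, 4 members were lower in R9 than in WT and 11 detected in more R9 cells, 9 were higher and 6 lower in ending 1 than in WT, and Rpl41 there was 0.21. In the same cells Rpl23a was -1.36, Rps15 -3.08, Rps9 -1.48 and Rpl38 1.11 in no ending over WT, and Rpl23a was 0.98, Rps9 1.85, Rps15 3.58 and Fau -0.81 in ending 1 over no ending, with 6 cells left without an ending. With a limit of 10 TPM, cells of ending 1 had 63 members detected, and 4 members were detected in more cells without an ending than WT cells. With log2 values averaged, 1 member was lower in R9 than in WT, 10 were higher in no ending than in WT, the median of ending 1 over WT was 1.75 with 69 higher and 0 lower, Rpl38 at 1.36 and Rpl41 at 0.83. That of ending 1 over no ending was 2.61 with 68 higher and 1 lower, Rpl23a at 0.33, Rps9 at 0.94 and Rps15 at 1.82. Without each gene's highest cell in each set, 2 members were lower in R9 than in WT, 11 were higher in no ending than in WT (Rps9 at -0.10), 30 were higher and 0 lower in ending 1 than in WT (Rpl41 at 0.070), and 9 were lower in ending 1 than in no ending (Rps9 at 0.83). Scaled by common genes, the medians were -0.44 for R9 over WT with 28 lower, -0.63 for ending 1 over WT with 1 higher and 36 lower, and -1.03 for ending 1 over no ending with 22 higher and 42 lower, Fau at -1.77. Apart from the setting without each gene's highest cell, the share of all genes past the same limits was not counted for these alternatives. Their counts of members therefore have no background. The cause of these differences was not tested. Depth is unknown, so a gene listed at 0 cannot be told from a missed one.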

Other observations

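The markers of other cells were at these summed levels in R9 cells without an ending, R9 cells of ending 1 and WT cells. The 10 core ILC genes held a median of 0.425%, 0.967% and 0.268% of TPM, and the 14 ILC3 genes 0.390%, 1.26% and 0.416%. Of 9 mast cell and basophil genes, 3 were detected in 50% or more of the cells without an ending and 3 (Mcpt1, Mcpt2 and Ms4a2) in none, whereas 7 were detected in no cell of ending 1 and 8 in no WT cell. That list held a median of 0.135% of TPM without an ending (0.006 to 0.466%), of 0 in ending 1 (up to 0.062%) and of 0 in WT (up to under 0.001%). The 3 erythroid genes in the tables reached 19.5% of TPM in 1 cell of ending 1, 1.10% without an ending and 0.086% in WT. The highest sums were 0.302%, 0.161% and 1.36% for the ILC1 and NK list, 0.020%, 0.617% and 0.027% for T cells, 0.029%, 0.130% and 0.180% for B and plasma cells, and 0.010%, 0.037% and 0.050% for stromal and endothelial cells. The 7 macrophage and dendritic cell genes in the tables held medians of 0.044%, 0 and under 0.001% (maxima 0.392%, 0.187% and 0.483%), with 2 of them in 50% or more of the cells without an ending and 0 in ending 1 and WT. Their part in the spread of the ribosomal protein genes was not tested.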
